A study of Mus musculus with 4 samples.

Results

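The murine small cell lung cancer (SCLC) lines P5 and P1 were compared gene by gene. The comparison covered the 9162 genes that reached 10 CPM (reads per 1000000 reads) in P5, in P1 or in both, of 54641 gene symbols in the deposited table. Rows that shared a symbol were summed, and rows without a symbol were left out. Each value is the difference in log2(CPM + 1), P5 minus P1, so that a value of 1 is 2-fold on that scale. The scale understates the change of genes with few CPM, and for a gene listed at 0 the size of the difference depends on the added 1 CPM. P5 and P1 came from primary lung tumors of mice on a C57BL/6 background, in which an adenovirus carrying Cre, given into the trachea, deletes conditional alleles of Rb1 and Trp53. Another primary line, P4, and a liver metastasis line, M1, complete the 4 lines of the series. All were grown untreated in RPMI medium with fetal serum, so the deletion and the culture are shared by P5 and P1. Per the study's methods, the neuroendocrine markers of the lines were checked routinely. Each line gave 1 library. The differences therefore describe these 2 libraries and have no replicate check, and no test was run. Fewer cells of a type and less RNA per cell cannot be told apart in such bulk RNA.

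SCLC usually resembles pulmonary neuroendocrine cells, which store peptides in dense-core granules. Tumors and lines of the same genetic origin can also take up non-neuroendocrine states, in which adhesion, matrix and contractile genes are prominent and the granule genes are low. Keratins 8, 18 and 19 are the intermediate filaments of simple epithelia, while collagens, lysyl oxidases and smooth muscle actin are typical of mesenchymal cells.

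The P5 library held 11523176 assigned reads and the P1 library 9527011, taken from the CPM that 1 read is worth in each column. At 10 CPM, 115 reads in P5 gave a 95% Poisson interval of 8.24 to 12.0 CPM, and 95 reads in P1 gave 8.07 to 12.2 CPM. These intervals cover counting error only. A gene listed at 0 could still lie below 3 reads, which is 0.260 CPM in P5 and 0.315 CPM in P1. P5 listed 20578 symbols above 0 and P1 listed 17824, against 7985 in P4 and 10074 in M1. Trp53 was at 0.260 CPM in P5 and 0.210 CPM in P1, and Rb1 at 13.2 and 10.3 CPM, where a value per gene cannot show a deleted exon. Y-linked Ddx3y was at 70.1 CPM in P5 and 4.41 CPM in P1, and Kdm5d at 14.1 and 0.315 CPM, while Xist stayed at 0.087 and 0.105 CPM. All but 1 of the immune panel genes (Ptprc, Lyz2, Tyrobp and Cd3e) were under 1 CPM in both lines, and Cd68 was at 2.52 CPM in P5 and 3.57 CPM in P1.

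P5 and P1 were the most alike of the 6 pairs of lines. Across genes with 10 CPM or more in either line of a pair, their levels had a Pearson correlation of 0.80 and a Spearman correlation of 0.83, against Pearson values of 0.37 to 0.48 for the other 5 pairs. In P5 against P1, 20.6% of genes differed by 2-fold or more, and in the other pairs 58.4% to 64.7% did. P4 and M1 list far fewer symbols, so the pairs were also set side by side over the 4360 genes with 10 CPM or more in all 4 lines. There, 10.9% of genes passed 2-fold between P5 and P1, against 33.9% to 40.4% in the other pairs. The deposited column names of P5 and P1 share a number that those of P4 and M1 lack. No label or method explains that number, and whether P5 and P1 share a mouse or a batch was not tested. Genes are not replicates, and these shares are descriptions of the libraries.

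Within this likeness, more genes were higher than lower in P5. Of the 9162 genes, 1284 were at least 2-fold higher in P5, which is 14.0%, and 605 were at least 2-fold lower, which is 6.60%. At least 4-fold higher were 502 genes (5.48%) and at least 4-fold lower were 154 genes (1.68%). The median difference was 0.08, and genes from the lower to the upper quartile lay between -0.37 and 0.59. The limit of 10 CPM lets in genes that are high in a single line, 1126 of them through P5 and 502 through P1. A list's counts are set beside these shares of all genes. Among the 7534 genes that reached 10 CPM in both lines, 538 were at least 2-fold higher in P5 and 339 at least 2-fold lower, with a median of 0.02. Zfp597, at 10.0 CPM in P5 and 5.31 CPM in P1, and Gm20605, at 3.40 and 10.0 CPM, stood just inside the limit. Zfp606, at 9.98 and 5.25 CPM, and Nol3, at 9.98 and 6.44 CPM, stood just outside it.

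**Figure D1:**
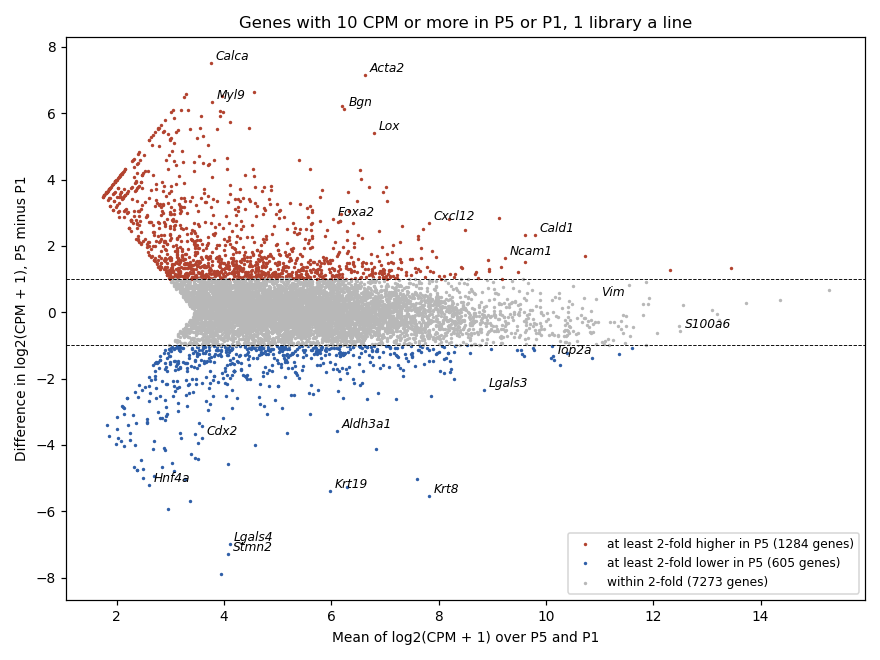
Difference in log2(CPM + 1), P5 minus P1 (vertical), against the mean of log2(CPM + 1) over P5 and P1 (horizontal), with 1 point per gene that has 10 CPM or more in either line. Dashed lines mark 2-fold, past which 1284 genes lie above and 605 below, and Calca, Acta2, Stmn2 and Lgals4 are among the points farthest from 0.

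The genes with the largest positive differences were Calca, Acta2 and Tm4sf1. Calca, which encodes calcitonin and the neuropeptide CGRP, reached 183 CPM in P5 with none listed in P1, a difference of 7.52. Acta2, smooth muscle alpha-actin, was at 1178 CPM in P5 and 7.24 CPM in P1, a difference of 7.16. Tm4sf1, a tetraspanin-like membrane protein, was at 233 and 1.36 CPM. Next came Fbln5, an elastic fibre protein, at 95.5 CPM in P5 and 0 in P1, the secreted hormone Stc1 at 148 and 0.630 CPM, and the fibrillar collagen chain Col5a2 at 89.3 CPM and 0. Among the 20 genes highest in P5 by difference, Acta2, Ccdc80 and Bgn had the highest levels, with Ccdc80 at 631 CPM in P5 and 7.45 CPM in P1 and the small proteoglycan Bgn at 632 and 8.08 CPM. Most of these genes were at or near 0 in P4 and M1 too. P4 and M1 list far fewer symbols, 7985 and 10074, so a 0 in them, here or below, need not mean absence. Acta2, Calca, Fbln5 and Stc1 were listed at 0 in both, whereas Tnc was at 39.5 CPM in M1.

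The predicted gene Gm20721 had the largest negative difference, listed at 0 in P5 and at 238 CPM in P1. Stmn2, a neuronal regulator of microtubules, was at 0.347 CPM in P5 and 211 CPM in P1, a difference of -7.30, and it was the gene that broke the pattern of the neuroendocrine list. Lgals4, a galectin of the gut epithelium, was at 0.521 and 193 CPM. Krt8 was at 32.5 CPM in P5 and 1543 CPM in P1, its partner Krt18 at 32.6 and 1105 CPM, and Krt19 at 8.68 and 405 CPM. Igfbp4, an IGF-binding protein, stood with them at 11.5 CPM in P5 and 488 CPM in P1. The nuclear receptor Hnf4a, which in liver and gut drives epithelial genes, was listed at 0 in P5 and was at 36.1 CPM in P1. It was also detected in P4 and M1, at 21.5 and 27.7 CPM, so P5 alone of the 4 lines listed it at 0. Cdhr5, a cadherin of brush-border microvilli, was listed at 0 in P5 and was at 26.1 CPM in P1, and cadherin 17 (Cdh17) was at 0.694 and 23.9 CPM. Cdx2, an intestinal homeobox factor picked once its values were known, had 2.26 CPM in P5 and 43.8 CPM in P1 and listed at 0 in P4 and M1. Vil1, a protein of microvilli picked in the same way, had 4.84 CPM in P5 and 1.89 CPM in P1.

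Among neuroendocrine markers the difference between the lines was wide. Of 36 genes listed, 17 reached 10 CPM in either line, and 15 of these (88.2%) were at least 2-fold higher in P5 and 1 was lower, with a median difference of 4.00 against 0.08 over all genes. Over all genes, 14.0% were higher and 6.60% lower. No more than 2 of the 17 reached 10 CPM in both lines, so most entered through the line where they were high. Of the 17, 8 were listed at 0 in P1. The granins were among the genes higher in P5, with Scg2 at 67.1 CPM in P5 and 0 in P1 and Chga at 26.5 CPM and 0. Ddc, which makes dopamine and serotonin from their amino acid precursors, was at 127 CPM in P5 and 0.945 CPM in P1. Uchl1, a neuronal deubiquitinase, was at 66.4 CPM in P5 and 5.14 CPM in P1. The adhesion molecule Ncam1 was high in both lines, at 1057 and 340 CPM, and was at 299 CPM in P4 and 319 CPM in M1. Summed over the 36 listed genes, the level was 1837 CPM in P5, 578 CPM in P1, 309 CPM in P4 and 1690 CPM in M1. A high sum was thus not particular to P5. Of the 7 neuroendocrine panel genes, Ncam1 alone exceeded 10 CPM in P1, which goes against a granule-bearing neuroendocrine profile for P1. Syp, synaptophysin, was at 0.268 CPM in P5 and 0 in P1, so that P5 itself showed part of the panel only.

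Of factors used to define SCLC subtypes, Neurod1 was at 0.087 CPM in P5 and 0 in P1 and Pou2f3 was listed at 0 in both. Yap1, found in non-neuroendocrine SCLC, was at 88.0 CPM in P5 and 51.3 CPM in P1, a difference of 0.77. Insm1, a zinc finger factor of neuroendocrine cells, was at 6.94 CPM in P5 and 0 in P1, both under the limit of 10 CPM. In M1, Insm1 was higher than in P5, at 74.0 CPM. Mycl was at 9.37 CPM in P5 and 0.210 CPM in P1, Myc at 3.38 and 7.35 CPM, and Mycn under 1 CPM in both. Nfib, often amplified in this mouse model, was at 496 CPM in P5 and 335 CPM in P1, and Nfia was at 123 and 37.2 CPM. The repressor of neuronal genes Rest was near equal, at 217 and 261 CPM. Neuroendocrine genes and Yap1 were thus measured in the same P5 library, where a mixture of cells and cells that hold both cannot be told apart.

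**Figure D2:**
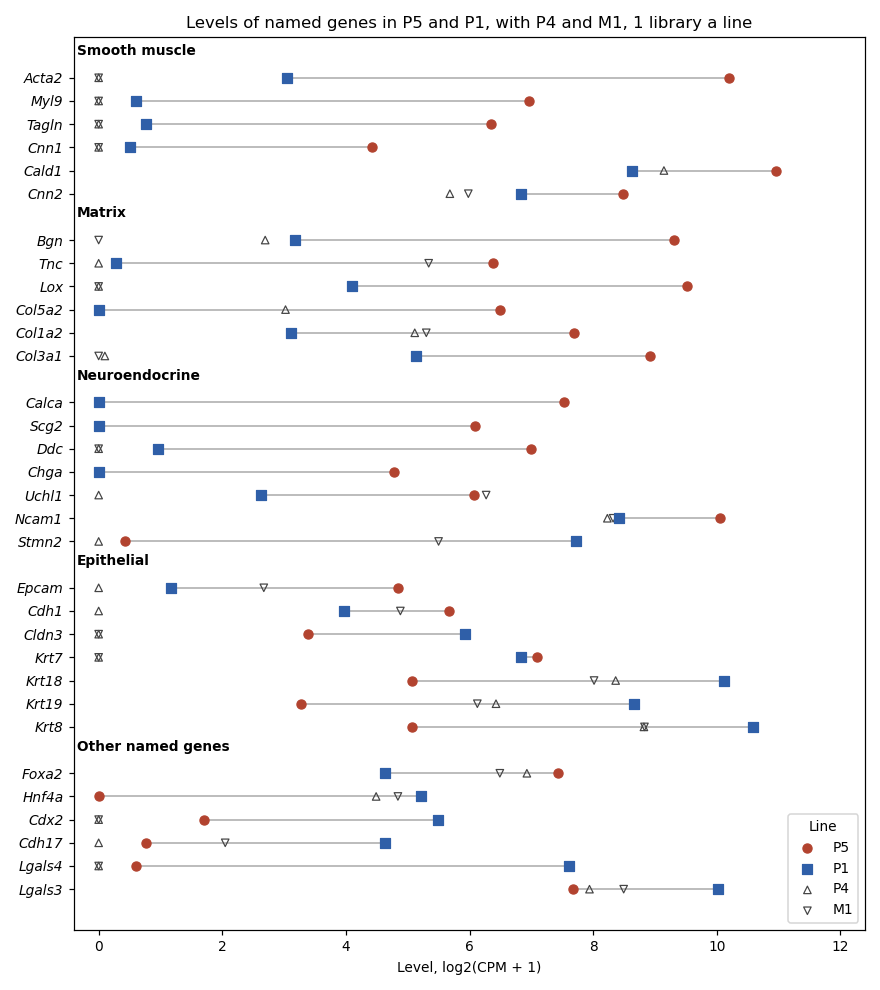
Level of named genes as log2(CPM + 1) in P5 (red circles) and P1 (blue squares), joined by a grey line, with P4 and M1 as open triangles, 1 library a line. P5 is to the right of P1 for the smooth muscle and matrix genes and for all the neuroendocrine genes but Stmn2, and to the left for Krt8, Krt18, Krt19, Hnf4a and Lgals4.

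Smooth muscle contractile genes were higher in P5 or within 2-fold. Of 15 list members tested, 8 (53.3%) were at least 2-fold higher and none lower, with a median of 1.30. Over all genes, 14.0% were higher and 6.60% lower. Among the 11 members with 10 CPM or more in both lines, 4 were higher and the median was 0.59. At that limit, 7.14% of all genes were higher. Beside Acta2, the light chain Myl9 was at 123 CPM in P5 and 0.525 CPM in P1, Tagln at 80.1 and 0.709 CPM, and Cnn1 at 20.4 and 0.420 CPM. Cald1, caldesmon, was at 1985 CPM in P5 and 394 CPM in P1, and Cnn2 was at 358 and 113 CPM. The list stopped short of a differentiated muscle profile: Myh11, the smooth muscle myosin, was listed at 0 in both lines and Des, desmin, was at 0.434 CPM in P5 and 0.735 CPM in P1. Flna, Tpm1 and Tpm4, which many adherent cells express, differed by 0.73, 0.44 and 0.59.

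The promoters of 3 of these genes are shown because contractile genes share known DNA motifs. The CArG box is bound by serum response factor, and GGAATG by TEAD factors, the partners of Yap1. Sequences are the 250 bases before the start position that the RefSeq promoter table (mm10) uses. This start can lie inside the listed span of a gene, as it does for Acta2, whose window overlaps that span, and for Myl9. The sequences were read as given, and motifs were searched on both strands as exact letters. A CArG box had to be CC, then only A or T, then GG, as in CCTAATAAGG. Looser stretches were not counted. The Acta2 window holds ccctatatgg and ccttgtttgg, each with a C or G between CC and GG, so its lack of a counted box rests on this rule. Of 15 tested smooth muscle members, 14 had a promoter in the table. A CArG box was in 2 of the 14 (Cnn2 and Myl9), against 1.62% of all 27025 genes in the table, and GGAATG in 7 of the 14, against 14.4% of all genes. GGAATG was not particular to this list. It was also in 12 of 20 tested genes of the Hippo list and in 4 of 14 of the neuroendocrine list. No CArG box was found in those 2 lists. The 7 with GGAATG were Acta2, Tagln2, Tpm1, Mylk, Smtn, Cald1 and Flna, and of these Acta2 and Cald1 were at least 2-fold higher in P5 and the other 5 were within 2-fold. Capitals mark GGAATG in Acta2 (chr19:34255374-34255623, minus strand, 146 bases before the start) and the CArG box in Myl9 (chr2:156775214-156775463, plus strand, 161 bases before the start) and in Cnn2 (chr10:79988350-79988599, plus strand, 56 bases before the start). A match is a description of the letters and is not evidence of binding.
Acta2: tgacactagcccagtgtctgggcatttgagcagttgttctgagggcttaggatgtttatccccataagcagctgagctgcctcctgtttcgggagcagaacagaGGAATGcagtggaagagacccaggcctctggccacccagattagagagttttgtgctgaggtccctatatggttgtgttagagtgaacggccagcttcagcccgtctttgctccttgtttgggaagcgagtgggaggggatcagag
Myl9: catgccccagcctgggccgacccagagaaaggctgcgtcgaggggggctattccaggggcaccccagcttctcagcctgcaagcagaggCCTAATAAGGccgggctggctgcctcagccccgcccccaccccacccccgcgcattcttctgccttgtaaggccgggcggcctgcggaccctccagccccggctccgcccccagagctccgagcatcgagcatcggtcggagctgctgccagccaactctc
Cnn2: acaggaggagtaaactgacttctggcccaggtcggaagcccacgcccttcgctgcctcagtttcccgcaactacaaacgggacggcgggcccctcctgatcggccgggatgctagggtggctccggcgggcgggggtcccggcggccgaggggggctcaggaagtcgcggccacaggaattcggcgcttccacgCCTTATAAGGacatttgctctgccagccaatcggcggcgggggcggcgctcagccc

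Matrix genes followed Acta2. Of 18 collagen chains tested, 13 (72.2%) were at least 2-fold higher in P5 and 1 was lower, with a median of 2.63, and 9 of the 18 reached 10 CPM in both lines, where the median was 0.60. The main chains of interstitial collagen were all higher, with Col3a1 at 483 CPM in P5 and 34.0 CPM in P1, Col1a2 at 206 and 7.66 CPM, and Col1a1 at 145 and 16.1 CPM. Chains of basement membrane collagen stood apart from them. Col4a2 was at 72.5 CPM in P5 and 71.3 CPM in P1, and Col4a1 at 72.5 and 130 CPM. Lox, the enzyme that crosslinks collagen and elastin, was at 728 CPM in P5 and 16.1 CPM in P1. The enzymes that hydroxylate collagen went the same way, with Plod2 at 92.9 and 7.77 CPM and P4ha1 at 45.1 and 15.4 CPM. Of 33 matrix glycoproteins and proteoglycans, 16 were higher (48.5%) and 6 lower (18.2%) in P5, with a median of 0.96. Over all genes, 14.0% were higher and 6.60% lower. Tnc, Postn and Thbs2 were higher, Postn at 25.5 and 0.105 CPM. The proteoglycan decorin (Dcn) ran against them at 2.43 CPM in P5 and 21.8 CPM in P1. Lum, lumican, was at 0.174 CPM in P5 and 0 in P1, and Thy1 had the same values, so that these 2 defining fibroblast genes were near 0 in both lines.

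Fibroblast and mesenchymal markers, which overlap with the collagen list, gave 11 higher and 2 lower of 15, with a median of 2.97. In the 8 that reached 10 CPM in both lines, the median was 1.81. Among them were the cadherins Cdh2, at 103 CPM in P5 and 4.20 CPM in P1, and Cdh11, at 29.6 and 1.78 CPM. Pdgfrb, a receptor of mural and mesenchymal cells, was at 86.6 CPM in P5 and 10.2 CPM in P1. Vimentin (Vim), the general mesenchymal filament, was within 2-fold, at 2245 CPM in P5 and 1701 CPM in P1, and S100a4 was lower in P5, at 1142 and 2977 CPM. Of 11 transcription factors of epithelial-mesenchymal transition, 5 (45.5%) were at least 2-fold higher and none lower, against 14.0% and 6.60% of all genes. Twist1 was at 17.3 CPM in P5 and 0.840 CPM in P1, Zeb2 at 42.1 and 15.3 CPM and Prrx1 at 160 and 64.1 CPM, while Zeb1 and Snai2 differed by 0.70 and 0.95. Matrix proteases and their inhibitors showed the same direction, with 13 higher (48.1%) and 2 lower (7.41%) of 27. In the 19 at 10 CPM or more in both lines, 7 were higher and none lower. Mmp3, stromelysin, was at 408 CPM in P5 and 19.8 CPM in P1. Whether a share of fibroblasts is present in the P5 culture was not tested. The summed level over the 7-gene fibroblast panel was 866 CPM in P5, against 89.4 CPM in P1, with 5 of the 7 genes at 1 CPM or more in each line. In P5, Dcn, Lum and Thy1 were under 3 CPM.

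Epithelial genes split between the lines. Of 18 tested, 4 were at least 2-fold higher in P5 and 9 lower, with a median of -0.96. In the 9 members at 10 CPM or more in both lines, 1 was higher and 3 were lower, with a median of -0.35. The simple keratins Krt8, Krt18 and Krt19 were lower in P5 by differences of -5.53, -5.04 and -5.39, yet they were far above 0 in P4 and M1, between 68.8 and 454 CPM. In P5 all 3 stood below their values in P4 and M1. The surface adhesion genes Epcam and Cdh1 were higher. Epcam was at 27.7 CPM in P5 and 1.26 CPM in P1, Cdh1, E-cadherin, at 49.6 and 14.6 CPM, and Esrp1, a splicing factor of epithelial cells, was listed at 0 in P1 and differed by 3.59. Krt7 was near equal at 135 and 113 CPM. The claudins Cldn3 and Cldn2 were lower in P5, Cldn3 at 9.46 and 60.1 CPM. The integrins were divided too, with 6 higher (46.2%) and 3 lower (23.1%) of 13, against 14.0% and 6.60% of all genes. In the 6 integrins at 10 CPM or more in both lines, 1 was higher and 1 lower, with a median of 0.32. Most of the calls thus came from genes that entered through the line where they were high. The largest differences each way were in Itga9, at 23.1 and 0.840 CPM, and Itgb7, at 0.607 and 15.3 CPM. Itga3 was within 2-fold, at 78.5 and 116 CPM. The laminin-binding chains Itga6 and Itgb4 were lower in P5, Itga6 at 42.5 and 197 CPM and Itgb4 at 0.868 and 17.6 CPM. The chains Itga1, at 30.8 and 1.89 CPM, and Itga11, at 11.3 CPM and 0, which bind collagen, were higher. Among both keratins and adhesion genes, members thus differed in direction or size.

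Lung lineage genes were few. Foxa2, a forkhead factor of lung and gut endoderm, was at 172 CPM in P5 and 23.8 CPM in P1. Nkx2-1, the lung and thyroid factor, had 7.20 CPM in P5 and was listed at 0 in P1, P4 and M1, and the surfactant gene Sftpc was at 2.17 CPM and 0. Sox2 and Foxa1 differed by less than 2-fold. Aqp5, a water channel of alveolar and gland cells, was lower in P5, at 3.99 and 31.0 CPM. Msln, mesothelin, was at 51.2 CPM in P5 and 176 CPM in P1, with the mesothelial markers Wt1 and Upk3b at 0.174 CPM or less in both.

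**Figure D3:**
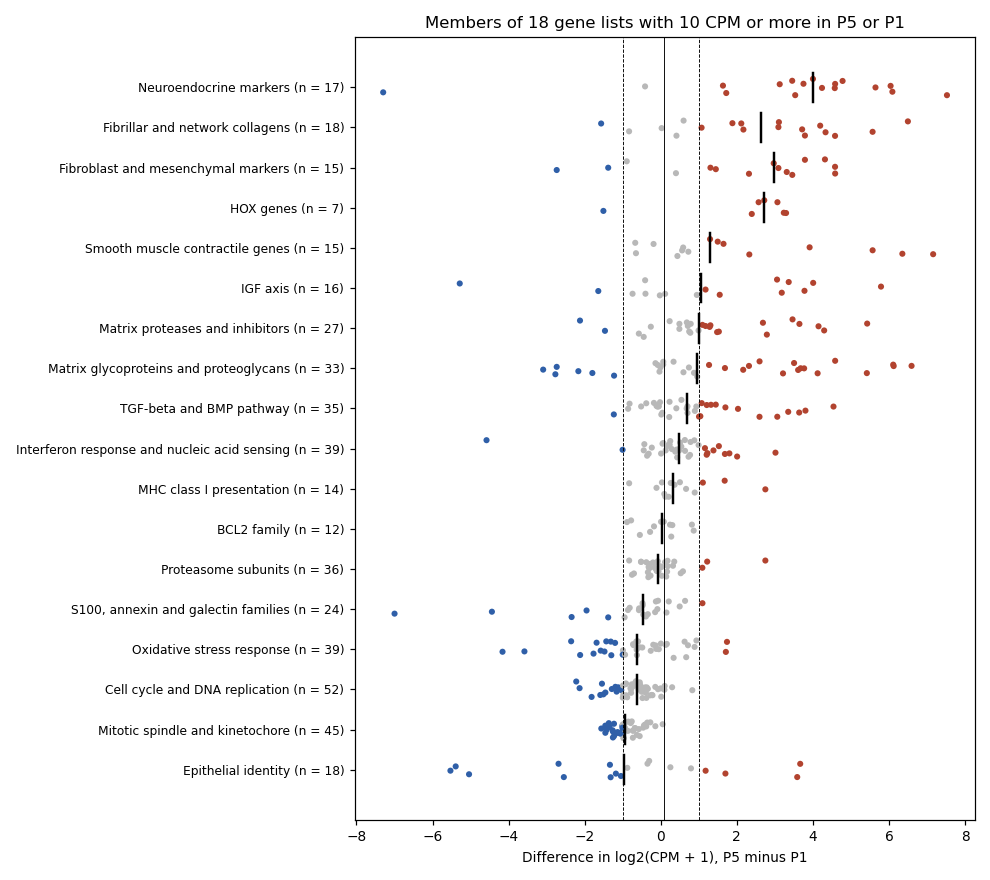
Difference in log2(CPM + 1), P5 minus P1, of the members of 18 gene lists with 10 CPM or more in either line, 1 point per gene, with black bars for list medians, dashed lines for 2-fold and a thin line for the median of all genes (0.08). Members of the neuroendocrine list spread from -7.30 to 7.52, while the 45 mitotic genes lie between -1.56 and 0.05.

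Positional genes differed too. Of the 7 HOX genes tested, 6 were higher in P5 and all 6 were of the Hoxb cluster, with differences from 2.39 (Hoxb9) to 3.29 (Hoxb5). Over all genes, 14.0% were higher and 6.60% lower. Hoxb5 was at 20.1 CPM in P5 and 1.15 CPM in P1. The summed Hoxb level was 144 CPM in P5 and 17.0 CPM in P1. The Hoxa cluster had the other order, with 22.6 CPM in P5 and 45.0 CPM in P1, and Hoxa7, the remaining gene and also picked once its values were known, had 7.29 and 22.6 CPM. None of the 7 reached 10 CPM in both lines, and no HOX gene was above 0 in P4 or M1, which list far fewer symbols.

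Genes of growth factor pathways were taken by role. Among secreted factors of the IGF axis, Igf1 was at 54.3 CPM in P5 and 0 in P1 and Igf2 at 54.5 and 5.67 CPM. The binding proteins were divided, with Igfbp7 at 374 CPM in P5 and 22.3 CPM in P1, Igfbp5 at 39.5 and 3.46 CPM, and Igfbp4 lower. Of 16 genes, 8 were higher (50.0%) and 2 lower (12.5%), against 14.0% and 6.60% of all genes, with a median of 1.06. In the 10 that reached 10 CPM in both lines, 3 were higher and 2 lower and the median was 0.05. H19, the imprinted neighbour of Igf2, had 35.8 CPM in P5 and was listed at 0 in P1, and the paternally expressed Peg10 was at 73.2 and 8.50 CPM. In the TGF-beta and BMP pathway 14 of 35 were higher (40.0%) and 1 was lower (2.86%), with a median of 0.70. The ligands Tgfb2, at 230 CPM in P5 and 26.7 CPM in P1, and Inhba, at 286 and 27.1 CPM, were among them, and so was Ltbp2, which binds elastic fibres, at 51.6 and 1.26 CPM. The pathway's response genes differed in direction, with Id3 at 392 and 63.9 CPM and Id4 at 18.8 and 0.420 CPM but Id1, picked once its values were known, at 92.6 CPM in P5 and 219 CPM in P1.

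Of 22 WNT genes, 8 were higher (36.4%) and 2 lower (9.09%) in P5, against 14.0% and 6.60% of all genes. In the 15 at 10 CPM or more in both lines, 4 were higher and 2 lower. Over all genes at that limit, 7.14% were higher and 4.50% lower. The ligand Wnt5a was at 44.9 CPM in P5 and 3.25 CPM in P1 and the receptor Fzd6 at 108 and 6.82 CPM, while Wnt7b was lower, at 11.4 and 76.7 CPM. NOTCH genes gave 4 higher (28.6%) and none lower of 14, including the target Hes1 at 63.5 and 25.9 CPM. In the 12 at 10 CPM or more in both lines, 3 were higher. YAP and TEAD targets were mixed. Of 23 genes of the Hippo list 6 were higher (26.1%) and none lower, with a median of 0.32. In the 20 at 10 CPM or more in both lines, 3 were higher. Ccn2 was at 56.2 CPM in P5 and 8.29 CPM in P1 and Amotl2 at 169 and 42.5 CPM, but Ankrd1, another textbook target, was at 410 and 480 CPM and Axl at 298 and 238 CPM. Among ERBB genes, 3 were higher and 3 lower of 12. The receptor Egfr was at 63.7 CPM in P5 and 14.5 CPM in P1, Erbb2 at 12.9 and 22.5 CPM, a difference of -0.75, and Erbb3 at 1.74 and 2.41 CPM. The EGFR ligands Areg, at 16.8 and 68.2 CPM, Btc, at 3.82 and 18.9 CPM, and Ereg, at 15.3 and 33.4 CPM, were all lower in P5. The EGFR ligand Hbegf was at 89.5 and 70.6 CPM. Dusp6, a phosphatase induced by ERK signaling, was at 132 CPM in P5 and 12.7 CPM in P1, whereas Dusp5 and Egr3 were lower in P5 and Ccnd1 was close at 255 and 251 CPM.

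Antigen presentation is the subject of the study. Of 14 MHC class I genes tested, 3 were at least 2-fold higher in P5 and none lower, with a median of 0.31. That is 21.4% higher, against 14.0% of all genes. In the 11 class I genes at 10 CPM or more in both lines, 1 was higher and none lower. B2m, the beta-2-microglobulin subunit of every class I complex, had 377 CPM in P5 and 174 CPM in P1, a difference of 1.11, and it was at 175 CPM in P4 and 242 CPM in M1. The heavy chains H2-K1, at 43.7 and 30.5 CPM, and H2-D1, at 69.9 and 54.1 CPM, differed by 0.50 and 0.36. The peptide transporter Tap1 was under the limit in both lines, at 8.07 and 5.88 CPM. The immunoproteasome subunit Psmb8 was at 21.3 CPM in P5 and 2.31 CPM in P1, although Psmb10 was at 23.2 and 42.0 CPM. No gene of the MHC class II list reached 10 CPM. Of 39 interferon and nucleic acid sensing genes, 9 were higher (23.1%) and 2 lower (5.13%), with a median of 0.47. In the 31 at 10 CPM or more in both lines, 3 were higher and 1 lower. Over all genes at that limit, 7.14% were higher and 4.50% lower. Isg15 was at 21.5 CPM in P5 and 1.78 CPM in P1, and Ifih1, a sensor of double-stranded RNA, at 18.8 and 5.88 CPM. Ddx58, which encodes RIG-I, was at 37.4 and 18.3 CPM, a difference of 1.00 that just missed the 2-fold call. Tbk1 and Tmem173, which encodes STING, differed by 0.07 and 0.38. Ifitm1 stood out as lower, at 2.43 CPM in P5 and 81.0 CPM in P1, while Ifitm3 was at 455 and 406 CPM.

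Genes of chemokines, interleukins and immune cell growth factors, some of their receptors included, were divided. Of 26, 10 were higher (38.5%) and 6 lower (23.1%), against 14.0% and 6.60% of all genes. In the 18 at 10 CPM or more in both lines, 5 were higher and 4 lower. Cxcl12, a chemoattractant of lymphocytes, was at 573 CPM in P5 and 88.3 CPM in P1, the alarmin Il33 at 435 and 86.9 CPM, and the lung chemokine Cxcl15 at 82.0 and 2.31 CPM. The receptor chain Il18r1 was lower, at 0.434 and 35.1 CPM. Among ligands of NK cells, Ulbp1 was at 65.7 CPM in P5 and 7.87 CPM in P1 and Raet1e at 1.48 and 11.5 CPM, so that members of this NKG2D ligand family had opposite order in the 2 lines. Lgals3, a secreted galectin, was at 203 CPM in P5 and 1035 CPM in P1.

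Proliferation genes were lower in P5 almost throughout. Of 45 mitotic spindle and kinetochore genes, 18 (40.0%) were at least 2-fold lower, against 6.60% of all genes, and none was higher, and 44 had a negative difference. The median was -0.94, against 0.08 over all genes, and it was -0.93 in the 41 members at 10 CPM or more in both lines. Top2a, which untangles chromosomes, was at 682 CPM in P5 and 1758 CPM in P1, the inhibitor of apoptosis and spindle protein Birc5 at 179 and 493 CPM, and the kinesin Kif11 at 38.0 and 114 CPM. Of 52 cell cycle and replication genes, 12 (23.1%) were lower and none higher, and 47 had a negative difference, with a median of -0.64. Mcm5, of the replicative helicase, was at 44.2 CPM in P5 and 197 CPM in P1, E2f2 at 13.8 and 68.0 CPM, and the proliferation marker Mki67 at 290 and 500 CPM. Unlike the matrix and neuroendocrine lists, nearly all members of these lists were above 10 CPM in both lines, so their counts owe little to the limit. Cdkn2a, the tumor suppressor locus that is high in cells without Rb1, was at 831 CPM in P5 and 279 CPM in P1. Cdk6 was lower in P5, at 158 and 379 CPM. Histone genes gave 3 higher (15.8%) and 7 lower (36.8%) of 19, against 14.0% and 6.60% of all genes, with Hist1h2ap at 706 and 2121 CPM.

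Detoxifying and antioxidant genes were lower in P5 as well. Of 39 tested, 13 (33.3%) were at least 2-fold lower and 2 (5.13%) higher, against 6.60% and 14.0% of all genes. The median was -0.63. Aldh3a1, an aldehyde dehydrogenase, differed by -3.58. Lower too were the glutathione transferases Gsta1 at 0.775 and 30.7 CPM and Gsta4 at 22.8 and 121 CPM, and the metallothionein Mt1 at 140 and 479 CPM. Gstm2 was an exception, at 59.5 and 17.1 CPM. In glycolysis and the pentose phosphate pathway, 2 of 27 were higher (7.41%) and 3 lower (11.1%). The lactate transporter Slc16a1 was at 22.1 CPM in P5 and 105 CPM in P1 and transketolase (Tkt) at 40.7 and 148 CPM. Heat shock and stress genes gave 10 higher (23.8%) and 3 lower (7.14%) of 42. The mitochondrial chaperone Hspd1 was lower in P5, at 487 and 1215 CPM, whereas the endoplasmic reticulum stress genes Pdia6, at 352 and 135 CPM, and Xbp1, at 37.0 and 14.3 CPM, were higher. S100, annexin and galectin genes gave 1 higher (4.17%) and 5 lower (20.8%) of 24. Cytosolic ribosomal proteins had a median of -0.37, with 64 of 78 negative, and mitochondrially encoded genes a median of 0.40, with 15 of 16 positive.

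Of 33 receptor tyrosine kinases and ligands outside the ERBB family, 13 were higher (39.4%) and 5 lower (15.2%), against 14.0% and 6.60% of all genes. In the 22 at 10 CPM or more in both lines, 6 were higher and 4 lower. The growth factor Fgf2 was at 26.6 CPM in P5 and 0.969 CPM in P1, and Fgf7, a factor that fibroblasts send to epithelium, at 13.9 and 0.210 CPM. Kdr, a VEGF receptor best known from endothelium, had 12.5 CPM in P5 and none in P1, with Cdh5 listed at 0 and Pecam1 at 0.822 CPM in P5, so that other endothelial markers were near 0. Of 22 axon guidance genes, 6 were higher (27.3%) and 2 lower (9.09%). Higher calls outnumbered lower calls among all genes too. In the 17 axon guidance genes at 10 CPM or more in both lines, 2 were higher and 2 lower. Robo1, a receptor of slit proteins, had 18.9 CPM in P5 and none in P1, and the semaphorin Sema3a was at 142 and 16.6 CPM. The semaphorins Sema3c, at 41.8 and 138 CPM, and Sema5a, at 12.1 and 60.9 CPM, were lower. Map2, a microtubule protein of dendrites, was at 44.2 CPM in P5 and 5.04 CPM in P1, while the neuronal tubulin Tubb3 was at 10.2 and 14.0 CPM.

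Several lists had medians near 0. Their counts stand beside 14.0% of all genes higher and 6.60% lower. Of 12 BCL2 family genes none was past 2-fold in either direction, with a median of 0.04 and extremes of -0.89 (Bcl2l1) and 0.87 (Bid). Of 36 proteasome subunits 3 were higher and none lower, with a median of -0.08, and of 84 nuclear genes of oxidative phosphorylation 2 were higher and none lower. Cholesterol and fatty acid synthesis gave 4 higher and none lower of 35. Among 17 p53 target genes, 2 were higher (11.8%) and 1 lower (5.88%), close to the shares of all genes. Fas, at 11.1 CPM in P5 and 1.89 CPM in P1, had the largest positive difference of them. Without replicates, no statement that these lists are equal can be made.

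The differences were not spread evenly over the chromosomes. Positions were known for 8939 of the 9162 genes. For genes with 10 CPM or more in both lines, the median difference was 0.50 on chromosome 16, 0.43 on chromosome 4, 0.30 on chromosome 9 and 0.26 on chromosome 18, and -0.39 on chromosome 19 and -0.35 on chromosome 15. On chromosome 16, 81.4% of 220 genes lay above the median of all such genes, and on chromosome 19 24.6% of 276 did. The shift ran along whole chromosomes. With the genes of a chromosome split by position into 3 equal parts, the medians on chromosome 16 were 0.52, 0.50 and 0.44, and on chromosome 19 they were -0.43, -0.35 and -0.42. Calls of 2-fold followed: 27.9% of the genes of chromosome 16 were higher in P5 and 1.05% lower, while on chromosome 15 7.67% were higher and 15.6% lower. Most of the genes with the largest differences were far beyond these shifts, and some ran against them. Acta2, higher in P5, lies on chromosome 19 (mm10 34240336 to 34255585), where the median was negative. Krt8 (101996711 to 102004342) and Krt18 (102028216 to 102032026) are neighbours on chromosome 15. Both were lower in P5, the same direction as the median of that chromosome. When each gene was taken relative to the median of its chromosome, 1192 genes were higher and 532 lower. The cause of the shifts was not tested.

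**Figure D4:**
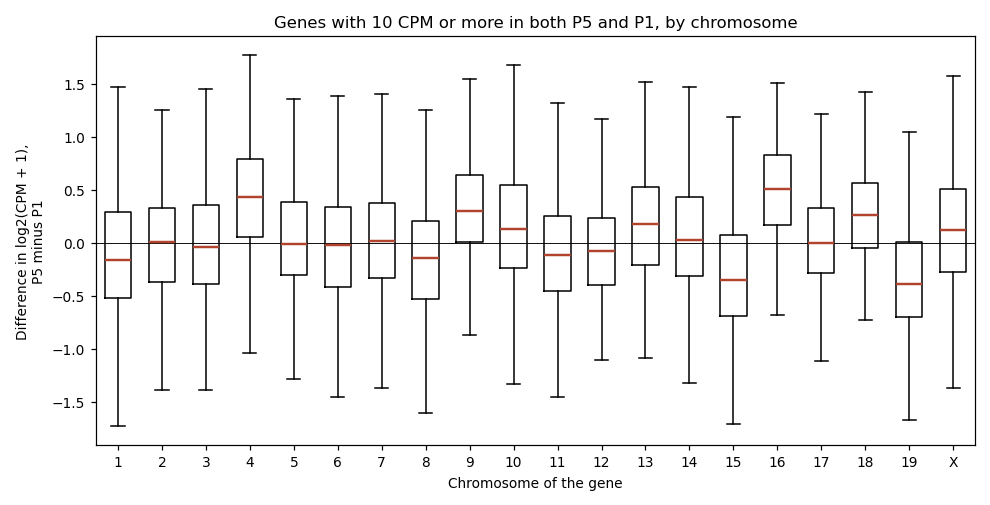
Difference in log2(CPM + 1), P5 minus P1, by chromosome, for genes with 10 CPM or more in both lines. Boxes span the quartiles with the median in red and whiskers reach to 1.5 times the quartile range, and chromosomes 16 and 4 sit highest, at medians of 0.50 and 0.43, and 19 and 15 lowest, at -0.39 and -0.35.

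Set among the 4 lines, neither P5 nor P1 was always the outlying one. Among the genes at least 2-fold higher in P5 with 1 CPM or more in every line, 427 in number, P5 was the highest of the 4 lines for 229 and P1 the lowest for 214. Among the 305 such genes that were lower in P5, P5 was the lowest for 159 and P1 the highest for 194. Choosing genes by P5 against P1 in itself moves these 2 lines to the ends of the order. The counts are therefore a description only. The genes of highest CPM were largely shared by both lines. AY036118, Actb and the mitochondrial ribosomal RNAs mt-Rnr2 and mt-Rnr1 were among the top 5 in each, Actb at 9198 CPM in P5 and 9449 CPM in P1. The nuclear RNA Malat1 was at 17778 CPM in P5 and 6988 CPM in P1.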

How the data were processed

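RNA of 4 cell lines was sequenced, 1 library each. The deposited values are CPM per gene, scaled by the authors so that each column sums to 1000000. Per the labels a total RNA kit was used, while the methods describe a 3′ mRNA kit, so whether long genes gain reads is not settled. The submitters' processing notes name build mm10. No source used here names the counting tool. Of 54838 rows, 85 without a symbol were left out and rows sharing a symbol (221) were summed. Under 80% of values were whole reads (79.9% in P5 and 79.0% in P1, tolerance 0.001 reads), which is how estimated counts look, so no count model was used. Differences in log2(CPM + 1) were computed in Python 3.11.15 with pandas 2.3.3, and the calculation was tested on simulated data. A gene was called at 2-fold (a difference of 1) or 4-fold (2). One member of the neuroendocrine list is not reported here by name. Named genes are the 20 largest differences each way, in each list the largest 6 differences and the highest 3 members within 2-fold, preset markers and study genes, the 5 highest genes of each line and neighbours of the limit. Lists and members were chosen with earlier results of these data known. Alternatives changed the pseudocount, filter, scaling, summing and chromosome centring.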

Additional observations from a re-analysis of the deposited data

How the results depend on the processing

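The count of genes at least 2-fold higher in P5 was 1364 and 1006 with pseudocounts of 0.1 and 5 CPM, 1214 with P5 rescaled to a median ratio of 1, 1563 without mitochondrial and top genes and 1284 with the highest row per symbol, against 1284 as reported. The count lower in P5 was 652, 447, 636, 548 and 605 in the same order, against 605. Filters moved the counts by over 1.5 times, with fewer or more genes tested: 538 higher and 339 lower with 10 CPM or more in both lines, 435 and 261 with 50 CPM or more in either, and 2780 and 981 with no filter. Taken relative to chromosome medians, an alternative chosen after seeing the data, they were 1192 and 532. The Pearson correlation of P5 and P1 was 0.91 over genes with 10 CPM or more in all 4 lines, against 0.80. Of 248 named genes past 2-fold, 18 fell under 2-fold with a pseudocount of 5 CPM, 13 with chromosome centring, 3 with P5 rescaled and 1 without top genes. None changed sign under these alternatives, but that is no check. Another pseudocount cannot change a sign, and the scaling and chromosome shifts were small beside 2-fold. Of the 11 list medians of 1 or more, none changed sign under the filters where these left members. The other alternatives could hardly have changed one. The HOX, endothelial, hepatocyte and sex-linked lists had none at 10 CPM or more in both lines. The neuroendocrine median was 6.74, 2.19 and 0.61 with a pseudocount of 0.1 CPM, of 5 CPM, and in members at 10 CPM or more in both lines, and the IGF and fibroblast medians were 0.05 and 1.81 in the last. The epithelial median was -0.35 in members at 10 CPM or more in both lines and -2.55 with 50 CPM or more in either. No paired analysis was possible because each line has 1 library. Across the genes with 10 CPM or more in both lines, medians over 5 equal groups by gene length ran between -0.10 and 0.16, and the part of gene length in the results was not tested.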
